A study of Mus musculus with 6 samples.

Results

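The 9 genes described here, Pax2, Pax8, Lhx1, Emx2, Sall1, Osr1, Eya1, Six2 and Gdnf, control how nephrons are built in the embryo, and were chosen by name as 9 of 21757 protein-coding genes of GENCODE M39. Their accessible intervals are the distinct intervals of a pooled ATAC-seq peak list of mouse kidney that overlap the stretch from 3 kb upstream of a gene's start to its end. These numbered 80 of 279569. The highest summit of an interval gave its values, namely the fold enrichment of read pileup over the background and the peak caller's -log10 q. ATAC-seq uses the transposase Tn5 to cut open chromatin, so a high pileup marks accessible DNA.

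Kidney cortex came from 3 WT mice and 3 tubule-specific Acly knockout mice (Acly cKO), all carrying the treatment label Control. By the methods, WT mice were Acly fl/fl littermates without Cre, and Acly cKO mice carried the same floxed alleles with Ksp-Cre, driven by the Cdh16 promoter and active in proximal tubule, distal tubule and collecting duct. The methods give an age range in weeks for the mice of the study without tying it to the ATAC-seq libraries, and further WT libraries that the methods name as deposited earlier were not mapped here. The labels put WT in batches 1 and 2 and Acly cKO in batches 4 and 5, which means that an effect of batch and one of genotype cannot be told apart. The peak list is a single call on pooled libraries, has no column for any of them and does not state which entered the pool, so genotypes were not compared and no value has a replicate error.

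Nephrons arise when mesenchymal progenitors next to the ureteric bud turn into epithelium. OSR1, EYA1, SALL1 and SIX2 act in the mesenchyme that holds these progenitors, with SIX2 keeping them undifferentiated, and this mesenchyme secretes GDNF, the ligand that makes the ureteric bud branch. PAX2 and PAX8 specify the renal lineage and remain in adult tubule epithelium, whereas the progenitor pool is used up soon after birth. LHX1 patterns the early nephron epithelium and EMX2 acts in the ureteric bud. Below, Pax2 and Pax8 are called adult tubule factors and Six2, Eya1, Osr1 and Gdnf progenitor factors. Lhx1, Emx2 and Sall1 are described on their own, although Sall1 could by its role be counted with the progenitor factors, and values with it counted there are given beside the contrast.

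The strongest interval of each adult tubule factor was higher than that of any of the 4 progenitor factors. The strongest interval reached a fold enrichment of 43.9 at Pax8 and 39.5 at Pax2, and 12.3 at Osr1, 10.3 at Eya1, 6.55 at Six2 and 6.15 at Gdnf. Of the other members, Sall1 had the highest value of all 9 genes, 45.8, followed by Emx2 with 27.6 and Lhx1 with 17.8. The ranges of adult tubule and progenitor factors thus did not overlap without Sall1 and overlapped with Sall1 among the progenitor factors. For Pax2 the difference lay in the strongest intervals, since its median interval, 3.08 fold, was below that of Eya1, 3.73 fold, and of Osr1, 3.47 fold. The medians of Six2, 2.65 fold, and Gdnf, 2.23 fold, were lower. At Pax8 the median interval, 18.0 fold, was above that of every progenitor factor. Pooled tissue cannot tell whether a weak interval is open in few cells or opened seldom in many cells.

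The reference sequences below show where these values sit, because the CpG-poor start of Pax8 was strongly open whereas the CpG-rich starts of Six2 and Gdnf were weakly open. They were read from GRCm39 on the strand of the gene. For Pax8 and Six2 the 150 bases before the gene start are given, inside the interval at that start, and for the others the 200 bases around the highest summit of the strongest interval. No annotated UTR base is included. Capitals mark matches on either strand to one of the motifs searched, CCAAT in Pax8 and Gdnf, GTTAAT in Pax2 and Emx2, and GGGCGG in Sall1 and Six2.
Pax8 upstream of the start, chr2:24365618-24365767, minus strand: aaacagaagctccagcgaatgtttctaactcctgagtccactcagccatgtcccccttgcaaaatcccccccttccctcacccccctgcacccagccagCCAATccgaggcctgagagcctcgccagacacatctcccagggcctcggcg
Pax2 strongest summit, chr19:44739278-44739477, plus strand: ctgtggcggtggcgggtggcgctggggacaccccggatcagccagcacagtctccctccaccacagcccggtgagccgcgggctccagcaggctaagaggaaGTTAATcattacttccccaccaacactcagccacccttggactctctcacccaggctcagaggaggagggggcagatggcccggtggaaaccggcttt
Sall1 strongest summit, chr8:89770241-89770440, minus strand: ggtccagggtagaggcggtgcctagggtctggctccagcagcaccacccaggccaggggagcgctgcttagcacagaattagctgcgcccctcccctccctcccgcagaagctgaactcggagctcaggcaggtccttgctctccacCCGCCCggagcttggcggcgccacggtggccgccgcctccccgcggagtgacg
Emx2 strongest summit, chr19:59444236-59444435, plus strand: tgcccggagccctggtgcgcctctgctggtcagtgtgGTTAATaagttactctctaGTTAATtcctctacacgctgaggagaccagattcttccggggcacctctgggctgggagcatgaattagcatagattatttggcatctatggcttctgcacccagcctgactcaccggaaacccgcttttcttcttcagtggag
Six2 upstream of the start, chr17:85996021-85996170, minus strand: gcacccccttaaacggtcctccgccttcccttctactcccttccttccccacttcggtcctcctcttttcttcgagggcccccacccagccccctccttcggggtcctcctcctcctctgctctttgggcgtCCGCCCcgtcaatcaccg
Gdnf strongest summit, chr15:7842349-7842548, plus strand: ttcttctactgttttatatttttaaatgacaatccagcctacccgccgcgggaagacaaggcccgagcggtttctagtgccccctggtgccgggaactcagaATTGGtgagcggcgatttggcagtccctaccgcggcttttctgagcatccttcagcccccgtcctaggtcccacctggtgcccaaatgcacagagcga

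These stretches held 5 CpG dinucleotides in 150 bases at Pax8 and 9 in 150 bases at Six2. The 200-base windows held 9 at Pax2, 15 at Sall1, 6 at Emx2 and 12 at Gdnf.

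Fold enrichment resolved into whole reads. All 749750 summits had values that were whole multiples of 0.0655 within 0.02 of a multiple, which corresponds to a constant background pileup of 14.3 reads and a pseudocount of 1. A Poisson model with that background gave the deposited -log10 p to within 0.000499 at the 729324 summits where it could be computed. The pileup behind each summit could thus be given with an exact Poisson interval at 95%. These intervals cover counting error in the pool only, treat the ends of a fragment as independent, and say nothing about differences between mice.

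At its highest summit Sall1 had 699 reads, a fold enrichment with an interval from 42.5 to 49.4. Pax8 had 670 reads (40.7 to 47.4 fold) and Pax2 603 reads (36.5 to 42.8 fold). In this order Sall1 and Pax8, and Pax8 and Pax2, did not differ beyond counting error. Emx2 followed with 420 reads (25 to 30.3 fold), then Lhx1 with 271 reads (15.8 to 20.1 fold), and each was separated from its neighbours in the order. Among the progenitor factors, Osr1 with 187 reads (10.6 to 14.2 fold) and Eya1 with 157 reads (8.80 to 12.1 fold) overlapped in their intervals. Six2 with 99 reads (5.33 to 7.96 fold) lay below Eya1, and Gdnf with 93 reads (4.98 to 7.52 fold) was not distinguishable from Six2.

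**Figure D1:**
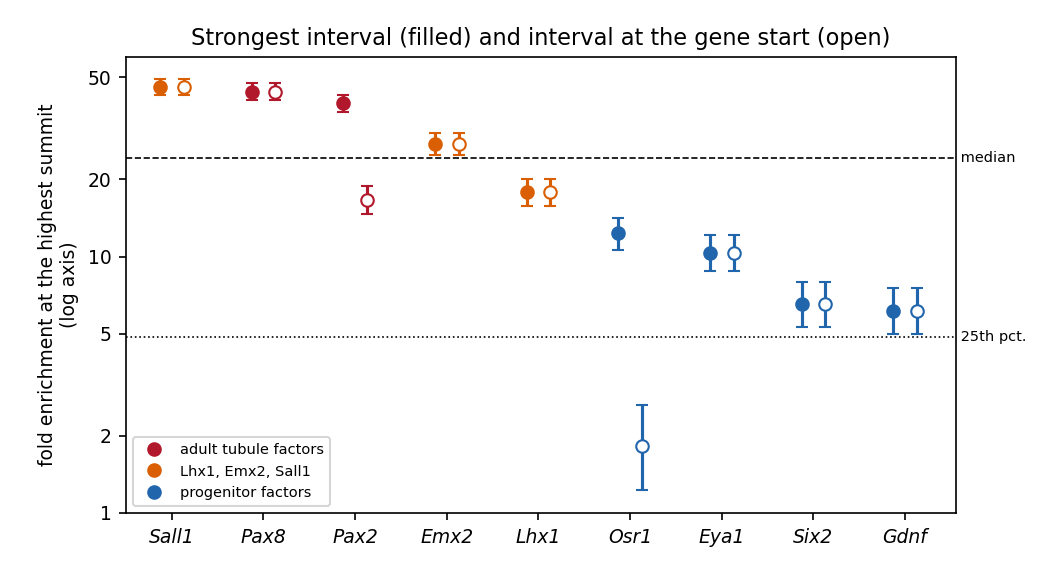
Fold enrichment at the highest summit (log axis) of the strongest interval in the region of each gene (filled points) and of the interval within 1 kb of the annotated gene start (open points), with bars for the exact Poisson interval of the pileup. Dashed and dotted lines mark the median, 24.3, and the 25th percentile, 4.84, of the strongest interval over all protein-coding genes. All 4 progenitor factors (blue) lie below the median and both adult tubule factors (red) above it, while the open point of Osr1 drops to 1.83.

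Against all protein-coding genes these levels were moderate. The median gene had a strongest interval of 24.3 fold, and genes without an interval counted as 0. Pax8 lay above 73.8% of genes, Pax2 above 68.8% and Sall1 above 75.8%. The progenitor factors lay above 35.9% (Osr1), 33.3% (Eya1), 27.7% (Six2) and 27.0% (Gdnf). All 9 members had an interval in their region, as did 83.2% of protein-coding genes, and in all 9 the strongest reached 5 fold, as it did in 74.7% of protein-coding genes. Having an interval at all therefore did not set the members apart. No test was made, since genes are not replicates and the pool holds a single value for each.

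Pax8, on the minus strand of chromosome 2 from 24309418 to 24365617 (ENSMUSG00000026976.17), was open over nearly its whole length. Its 13 intervals covered 93.1% of the 59.2 kb region, more than in 96.6% of protein-coding genes, for which the median share was 16.7%. The strongest interval, from 24362667 to 24367502, had its highest summit 2 bp upstream of the start. In intron 2 an interval 14540 bp wide, from 24342025 to 24356564 with 41 summits, reached 32.9 fold. A further interval with its summit 4394 bp upstream of the start reached 31.1 fold, and only 18.5% of it lay in the region. Intervals in intron 7 (21.1 fold), intron 11 (20.5 fold), intron 2 again (19.2 fold), intron 10 (18.0 fold) and intron 9 (11.1 fold) followed. Of the 13 intervals, 8 thus exceeded 10 fold. The lncRNA Gm13415 overlaps the 4 strongest of the 13 and every other interval in intron 2, and has its start inside the interval in intron 7. The assignment of all these intervals to Pax8 alone is therefore uncertain.

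Pax2, at 44735057 to 44826703 on chromosome 19, plus strand (ENSMUSG00000004231.18), had the largest number of intervals among the members, 33, more than in 94.4% of protein-coding genes. Its strongest interval, from 44737363 to 44746755, covers the start of the canonical transcript, which lies 9427 bp inside the annotated gene, and has its highest summit 5106 bp upstream of that start. The interval from 44724466 to 44733494 was next at 23.2 fold, but its summit lay 5062 bp upstream of the gene and outside the region. Towards the end of the gene an interval in intron 8 reached 18.8 fold, and in intron 5 another reached 10.9 fold. Of the 33 intervals, 28 had their summit in an intron of the canonical transcript and 16 were below 3 fold. The intervals of Pax2 were thus many, with a median of 3.08 fold, whereas the median at Pax8 was 18.0 fold. The lncRNA Gm26644 starts inside the strongest interval of Pax2 and Gm35610 inside the next.

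**Figure D2:**
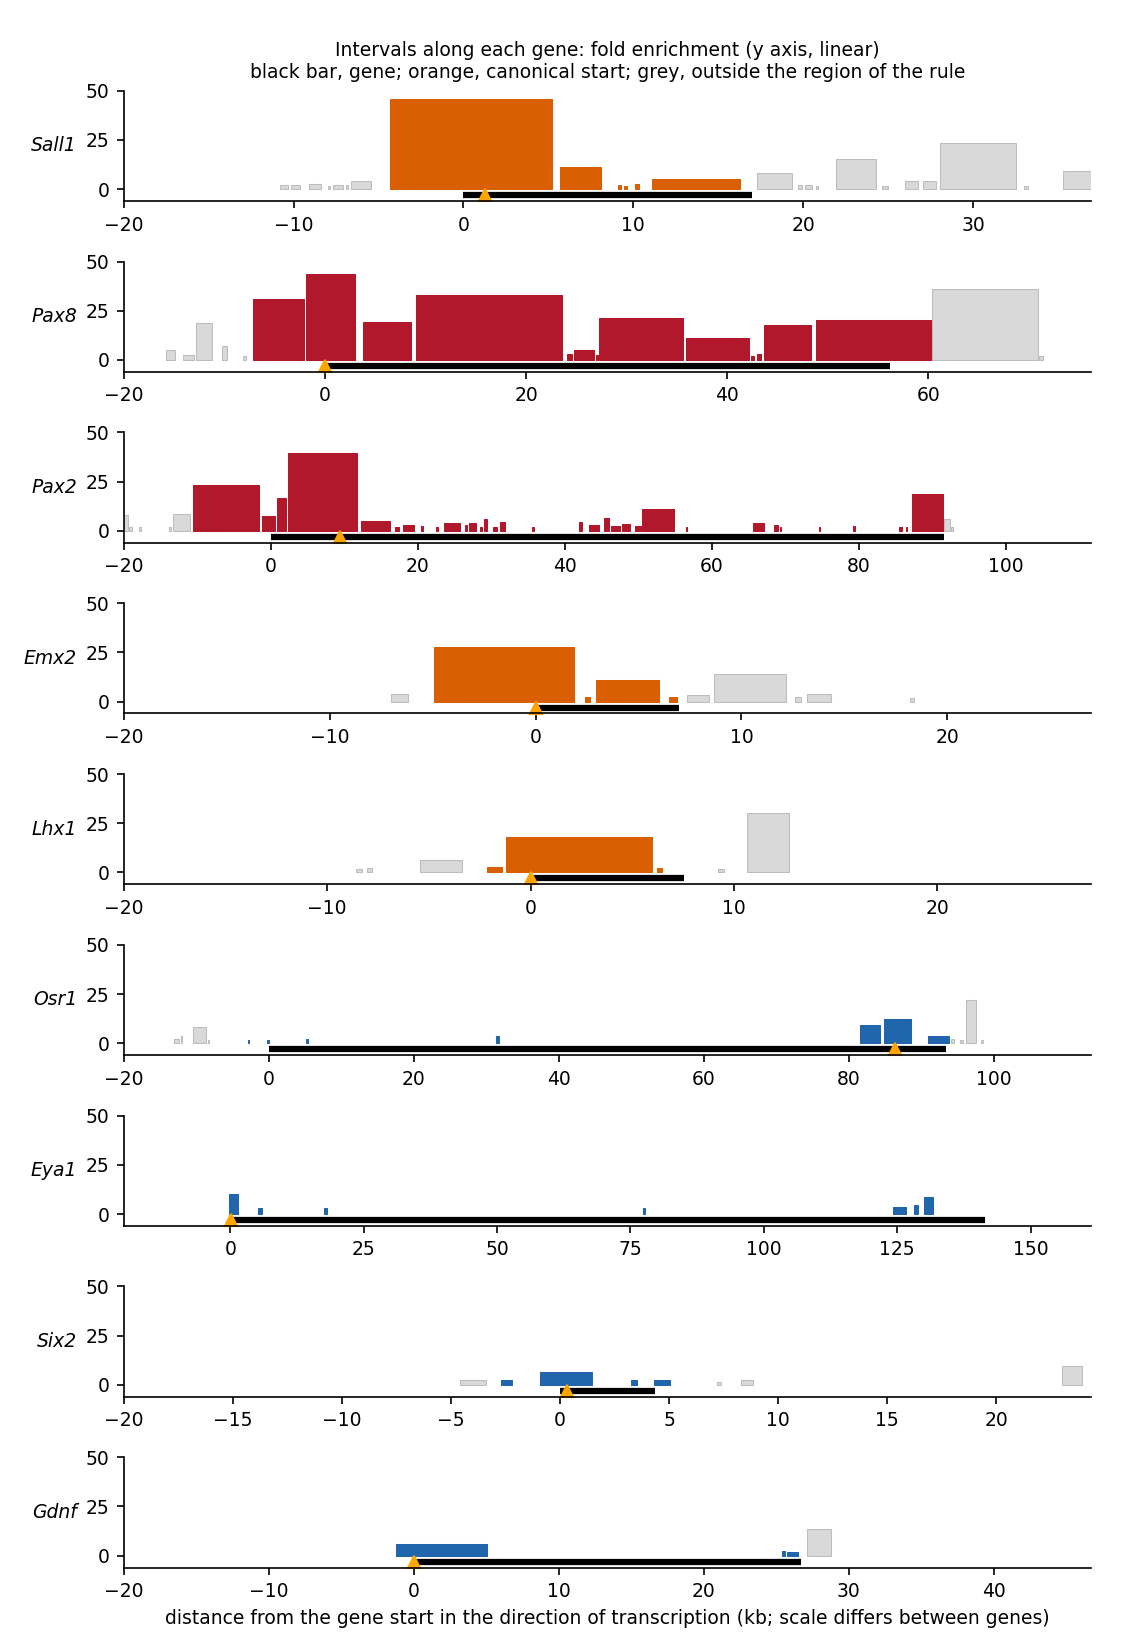
Intervals along each gene, with distance from the annotated gene start in kb on the x axis (scales differ between genes) and fold enrichment on the y axis (linear, the same for all genes). Coloured blocks overlap the region of the gene and grey blocks lie outside it. Black bars are the genes and orange triangles the canonical starts. Blocks fill 93.1% of the Pax8 region, 46.3% at Pax2, 44.3% at Six2, 24.4% at Gdnf, 10.4% at Osr1 and 5.55% at Eya1.

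Sall1 encodes a zinc finger protein that the ureteric bud needs in order to enter the mesenchyme. The gene lies on the minus strand of chromosome 8 from 89753863 to 89770823 (ENSMUSG00000031665.9). Its strongest interval, from 89765636 to 89775164, was 9529 bp wide with 21 summits. This width exceeded that at the start of 95.6% of protein-coding genes, where genes without a start interval counted as narrower. Among genes with a start interval it lay below the 95th percentile of 10160.5 bp. The highest summit lay 482 bp downstream of the gene start and 809 bp upstream of the canonical start. In intron 1 an interval reached 11.1 fold, and the remaining 4 were between 1.83 and 5.11 fold. The lncRNA Gm3134 overlaps all 6.

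Emx2 and Lhx1 are homeobox genes. Emx2, at 59446804 to 59453789 on chromosome 19, plus strand (ENSMUSG00000043969.5), had its strongest interval from 59441894 to 59448670, which peaked 2468 bp before the start. The antisense lncRNA Emx2os also starts inside this interval. In exon 3 of Emx2 an interval reached 11 fold. Lhx1, on the minus strand of chromosome 11 from 84408803 to 84416368 (ENSMUSG00000018698.17), had 3 intervals. That from 84410383 to 84417566 peaked 21 bp before the start, and the others were at 2.55 and 2.29 fold. Lhx1os overlaps all 3. In these short genes 85.1% (Emx2), 77.6% (Lhx1) and 82.1% (Sall1) of the region was covered by intervals, more than in 93.5%, 90.7% and 92.4% of protein-coding genes.

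Coverage differed among the progenitor factors. Eya1 with 5.55% and Osr1 with 10.4% of the region covered lay below the median of 16.7%. Six2 with 44.3% and Gdnf with 24.4% lay above it, and Six2 was close to Pax2 with 46.3%. By number, Six2 had 5.44 intervals per 10 kb, the highest density of the 9 genes. This rests on 4 intervals, including that from 85990976 to 85991691. Its summit lay outside the region, with a share of 0.0377 of its width inside. Eya1 and Osr1 had 7 intervals each beside a median of 4 per protein-coding gene. Eya1 encodes a phosphatase and transcriptional coactivator of the mesenchyme. The gene lies on the minus strand of chromosome 1 from 14239167 to 14380543 (ENSMUSG00000025932.16) within a region of 144 kb. Its strongest interval, from 14379156 to 14380782, peaked in exon 1, 394 bp inside the gene. The next, in intron 16 and 130585 bp from the gene start, reached 8.45 fold and ran from 14248888 to 14250593. The other 5 were between 3.14 and 4.78 fold.

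Osr1, among the earliest markers of the intermediate mesoderm, lies between 9538061 and 9631513 on chromosome 12, plus strand (ENSMUSG00000048387.10). Its canonical transcript starts 86377 bp inside the annotated gene, because longer transcripts extend the record upstream. At the record's start only a weak interval of 1.83 fold was found. The strongest interval, from 9622916 to 9626639, covered the canonical start with its highest summit 261 bp downstream of it, in exon 1. An interval from 9619585 to 9622318, with its summit 4315 bp upstream of the canonical start, reached 9.36 fold. The lncRNA 1700022H16Rik starts inside it.

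Six2, on the minus strand of chromosome 17 from 85991665 to 85996020 (ENSMUSG00000024134.14), had 4 intervals. The strongest, from 85994545 to 85996939, was 2395 bp wide with its highest summit 109 bp downstream of the gene start and 208 bp upstream of the canonical start. The remaining 3 lay between 2.29 and 2.68 fold, close to the median of 2.55 fold over all intervals. The strongest interval of Six2 itself had a -log10 q of 46.7 and was above 80.9% of all intervals of the list.

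Gdnf, at 7840327 to 7867060 on chromosome 15, plus strand (ENSMUSG00000022144.6), combined a wide interval with a low summit. The interval from 7839130 to 7845398 was 6269 bp wide with 26 summits. This width exceeded that at the start of 89.7% of protein-coding genes, where genes without a start interval counted as narrower. Among genes with a start interval the median width was 2901 bp. The highest summit of the Gdnf interval, 2122 bp downstream of the start in intron 1, nevertheless reached only 6.15 fold. The other 2 intervals, in exon 3, were at 2.23 and 1.90 fold. The lncRNA Gm63022 starts inside the wide interval.

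Over all 9 genes, 29 of the 80 intervals reached 5 fold (36.2%), compared with 24.5% of all intervals. That share was 24.2% at Pax2 (8 of 33) and 69.2% at Pax8 (9 of 13). It was 25% to 33.3% at the progenitor factors, which had only 3 to 7 intervals each. At least 10 fold was reached by 20, compared with 12.3% of all intervals. Of these, 13 were among the 46 intervals of Pax2 and Pax8 (28.3%), 5 among the 13 of Lhx1, Emx2 and Sall1 (38.5%) and 2 among the 21 of the progenitor factors (9.52%), 1 each at Osr1 and Eya1. Six2 and Gdnf had none. Summits fell in introns in 52 intervals, upstream of the canonical start in 17, in exons in 10 and downstream in 1.

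At the annotated gene starts the order changed for Pax2 and Osr1. Pax2 had 16.6 fold there, below Emx2 and Lhx1 and above 49.1% of protein-coding genes, and Osr1 had 1.83 fold, the lowest of the 9. Each value is the highest summit of the strongest interval that reaches within 1 kb of the start. That summit lay 1075 bp from the start at Pax2, 2468 bp at Emx2 and 2122 bp at Gdnf. All 9 members had an interval within 1 kb of the annotated start, compared with 74.3% of protein-coding genes, and in 8 of 9 it reached 5 fold, compared with 64.3%. The exception was Osr1. The median log2 fold enrichment of this interval was higher by 2.09 in the adult tubule factors than in the progenitor factors, 4.26 times on the linear scale. A range from 1.66 to 2.53 came from opposite ends of the Poisson intervals. The adult tubule factors were set to their lower ends and the progenitor factors to their upper ends, and the reverse. The coverage of this range is not known. With Sall1 counted as a progenitor factor the difference was 2.05. When the summit nearest to the start was taken in place of the highest, Pax2 had 7.33 fold and Eya1 10.3 fold, so that the sets overlapped. With canonical starts, an alternative added after seeing the data, the difference was 2.34, with 12.3 fold at Osr1 and 39.5 fold at Pax2. The Pax2 value belongs to a wide interval that covers the canonical start but has its highest summit 5106 bp upstream of it. The summit nearest to the canonical start was not examined.

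**Figure D3:**
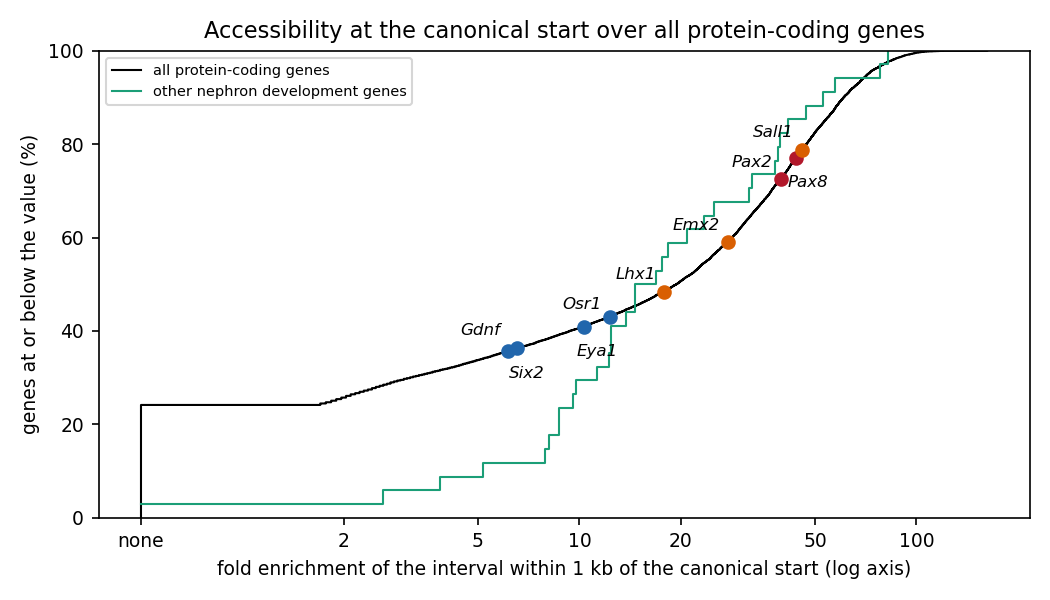
Share of genes (y axis, %) at or below a given fold enrichment of the interval within 1 kb of the canonical start (x axis, log), for all protein-coding genes (black) and the other nephron development genes (green). Points are the members, adult tubule factors in red, progenitor factors in blue and the rest in orange. The progenitor factors lie between 35.7% and 43.0% of genes and Pax2 and Pax8 at 72.5% and 77.1%. Each value is that of the interval's highest summit, which for Pax2 lay 5106 bp upstream of the canonical start.

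CpG content did not follow accessibility among the members. CpG-rich starts are usually open in most tissues, and CpG-poor starts usually only where the gene is used. In 1 kb around the canonical start, the ratio of observed to expected CpG was 0.923 at Six2, 0.825 at Gdnf, 0.787 at Eya1 and 0.592 at Osr1, with a median of 0.575 over protein-coding genes. Pax2 had 0.701 and Pax8 0.212. Lhx1 had 0.847, Emx2 0.718 and Sall1 0.895.

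Set beside starts of like CpG content, Gdnf, Six2 and Eya1 were among the least open, and Osr1 fell in neither set described here. Of 6175 protein-coding genes with a ratio of at least 0.75, 99.4% had an interval at the canonical start and the median fold enrichment was 41.1. Gdnf exceeded 3.58% of these genes, Six2 3.87% and Eya1 6.43%. Lhx1 exceeded 12.5% of them and Sall1 57.8%. Of 5814 genes with a ratio under 0.25, 31.7% had an interval, and Pax8 exceeded 98.3% of them. The bounds of 0.75 and 0.25 were chosen after the ratios were seen, and the comparison is a description without a test.

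**Figure D4:**
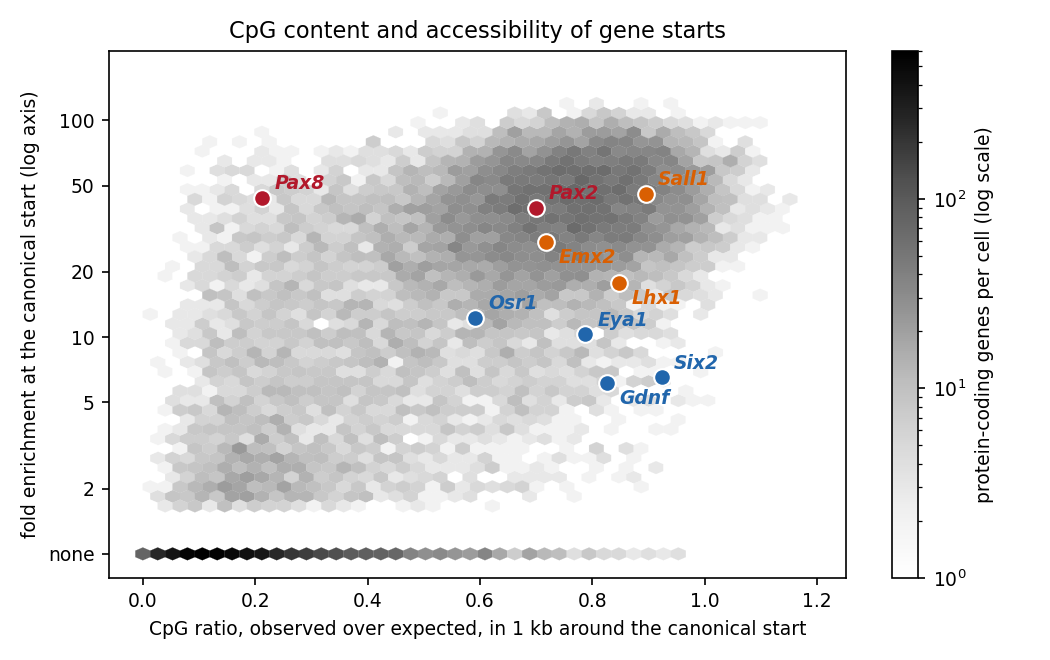
CpG ratio in 1 kb around the canonical start (x axis) and fold enrichment of the interval there (y axis, log), with shading for the number of protein-coding genes in each cell and points for the members (red adult tubule factors, blue progenitor factors, orange Lhx1, Emx2 and Sall1). Genes without an interval are drawn at the bottom. Six2 (0.923, 6.55 fold) and Gdnf (0.825, 6.15 fold) lie below the dense cloud of CpG-rich starts, and Pax8 (0.212, 43.9 fold) lies high among CpG-poor starts.

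The 200 bp around each highest summit were searched on both strands, without mismatch, for the GC box GGGCGG, the CCAAT box, the CRE TGACGTCA, the HNF1 core GTTAAT, the CTCF core AGGGGGCGC, the PAX paired core GTCACGC, the SIX2 site TCAGGTTTC and the homeodomain site TAATTA. HNF1 factors are transcriptional activators of tubule epithelium. GTTAAT occurred in 12 of the 80 windows (15.0%), compared with 7.30% of all 279567 windows and 2.77% of those at protein-coding gene starts. Of these 12 windows, 6 belonged to Pax2 (of 33), 2 each to Emx2 (of 4) and Sall1 (of 6), and 1 each to Pax8 (of 13) and Eya1 (of 7). Both strongest intervals of Pax2 held it, and the strongest of Emx2 held it in 2 copies. Osr1, Six2, Gdnf and Lhx1 held none, but had only 7, 4, 3 and 3 windows. Beside a share of 7.30% over all windows, counts this small cannot show a difference between the genes.

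The GC box was found in 8 of the 80 windows (10.0%, against 8.15% of all) and CCAAT in 10 (12.5%, against 22.8%). TAATTA occurred in 2 windows (2.50%, against 4.0%), 1 each at Pax2 and Osr1. The SIX2 site was found once, at Pax2, a share of 1.25% against 0.303% of all windows. The PAX paired core, the CRE and the CTCF core were in none of the 80 windows and in 0.798%, 0.405% and 0.442% of all windows. A match is a run of letters and does not show binding.

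Intervals stronger than any inside the region lay within 50 kb of all 4 progenitor factors, at Eya1 by less than counting error. At Osr1 an interval 10.6 kb downstream of the canonical start, from 9634222 to 9635659, reached 22.1 fold, above every interval inside the region. At Gdnf an interval from 7867482 to 7869095, just past the gene's end, reached 13.5 fold, and another, 67.1 kb from the start and inside Wdr70, reached 19.6 fold. Eya1 had an interval of 11.5 fold 49.9 kb upstream of its start. Within 50 kb of Six2 the strongest interval, 23.4 kb downstream of the start, reached 9.36 fold, and none exceeded 10 fold. With 50 kb on either side the strongest interval of Osr1, Gdnf, Six2 and Lhx1 changed beyond counting error, and Six2 then had the lowest value of the 9 genes.

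Pax8, Sall1, Pax2 and Emx2 also had intervals outside the region, but none was above the strongest interval inside it. Beyond the end of Pax8 the interval from 24294760 to 24305221, which overlaps Psd4, reached 35.8 fold. At Sall1 the strongest interval outside the region, 30.8 kb downstream of the start, reached 23.2 fold, and the nearest start of another protein-coding gene lay 317 kb from it. Pax2 had 14.5 fold 22.6 kb upstream, and Emx2 14.1 fold 9.36 kb downstream of the start. At Lhx1 the strongest interval outside the region, at 30.1 fold, lay 0.026 kb from the start of Aatf, the neighbouring gene. It was stronger than any interval of Lhx1 inside the region.

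A wider list of 34 genes of nephron development, among them ligands, receptors and transcription factors, was described the same way. Of these, 33 had an interval within 1 kb of the annotated start, compared with 74.3% of protein-coding genes. In 31 it reached 5 fold, compared with 64.3%. The median was 17.9 fold beside 17.5 fold over all protein-coding genes. Among the highest values were 82.1 fold at Etv5, an ETS factor downstream of GDNF signalling, and 61.7 fold at Fgf20, a growth factor of nephron progenitors. At the canonical start of Fgf20 the value was 3.86 fold. The lowest were 4.26 fold at Robo2, the receptor for SLIT2, and 2.62 fold at Fgf8, and Meox1 had no interval there. At its canonical start Robo2 had 13.7 fold. Ret, the receptor for GDNF, had 8.71 fold and its coreceptor Gfra1 14.6 fold. Wt1, a regulator of progenitors that podocytes keep, had 9.76 fold.

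The labelled tissue was checked with marker genes. All 9 markers of proximal tubule, thick ascending limb and distal tubule had an interval of at least 5 fold at the start. The share over all protein-coding genes was 64.3%. Values of the 9 ran from 5.30 fold at Slc22a6, an organic anion transporter, to 33.1 fold at Lrp2, the endocytic receptor megalin. The median was 15.1 fold for proximal tubule and 13.5 fold for thick ascending limb and distal tubule, beside 17.5 fold over all protein-coding genes. At least 5 fold was reached by 2 of 4 markers each of collecting duct and podocyte, 1 of 4 each of endothelium and immune cells, and 2 of 3 of stroma. Of 5 genes of other organs 2 had an interval at the start and 1 reached 5 fold. The strongest interval in the region did not separate the lists in this way. By that measure 4 of 5 genes of other organs reached 5 fold, beside 74.7% of protein-coding genes. Their median was 12.8 fold, above every progenitor factor. All 4 immune genes reached 5 fold as well, with a median of 38.0 fold beside 16.2 fold for proximal tubule.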

How the data were processed

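ATAC-seq libraries of mouse kidney cortex were grouped by genotype from their labels (3 WT, 3 Acly cKO). Per the methods, the authors used fastp for trimming and Bowtie2 2.3.4.3 for alignment to mm39, kept unique reads without duplicates, called peaks with MACS3 3.0.0 at a q of 0.05 with reads extended to 200 bp, and removed blacklisted regions with BEDTools 2.29.1. The shift of 100 in their methods has no legible sign, so summit positions are uncertain on that scale. The deposited peak list holds the fold enrichment (a ratio), -log10 p and -log10 q of each summit, a score of 10 times -log10 q, and the summit's distance from the interval start. The authors' unfiltered summit list holds the same -log10 q. Depth of single libraries is unknown.

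Distinct intervals were overlapped by at least 1 bp with GENCODE M39 genes on GRCm39. Pileup was computed from fold enrichment. CpG ratios and motifs were read from GRCm39. The named genes were the 9 members, the 3 highest and 3 lowest of 34 other nephron genes by the interval at the start, genes without one (1 of the highest is not reported here), and any gene that starts in a member's strongest interval, with the 3 strongest intervals of each member. Ret, Gfra1, Wt1 and the gene names in flanking intervals were chosen after their values were seen. The members and lists were chosen with earlier results of these data known. Scripts were tested on simulated data. Python 3.11.15 was used with numpy 2.4.6, pandas 2.3.3, scipy 1.17.1 and matplotlib 3.10.9.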

Additional observations from a re-analysis of the deposited data

How the results depend on the processing

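No paired analysis was possible because the deposited values come from 1 pooled call without a column for any library, and for the same reason no replicate could be left out. The 80 intervals at the 9 genes became 29 at 5 fold or more, 525 when summits were counted and 179 with 50 kb on either side, the last an alternative added after seeing the data. They stayed within 1.5 times, from 55 to 118, under the 5 other alternatives. The number of members with an interval at the start stayed between 7 and 9. The difference of median log2 fold enrichment between adult tubule and progenitor factors, 2.09, kept its direction under all 7 alternatives. The strongest interval in the region, the strongest at any transcript start and the canonical start picked the same intervals and gave the same 2.34. Those settings are therefore not separate checks. Under 3 of the 7 alternatives the difference moved outside the range of 1.66 to 2.53 given by the ends of the Poisson intervals. The difference was 1.58 with the summit nearest to the start and 1.39 with Lhx1, Emx2 and Sall1 counted as progenitor factors. With the strongest interval within 50 kb, also added, it was 1.47. With Sall1 alone counted as a progenitor factor, added later as well, it was 2.05. With 10 kb on either side the strongest interval of 3 genes moved beyond counting error, Lhx1 to 30.1 fold, Osr1 to 22.1 fold and Gdnf to 13.5 fold. The unfiltered list gave the same -log10 q for all 9 genes and held 0 further summits within 50 kb of them. Reproducibility of weak intervals between mice could not be determined.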
